A study of Mus musculus with 12 samples.

Results

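The 10 genes described here belong to the antioxidant and glutathione system that the transcription factor NRF2 serves: Nfe2l2, Hmox1, Slc48a1, Nqo1, Gclc, Gclm, Gsr, Txnrd1, Srxn1 and G6pdx. They were chosen by symbol from the 17995 genes with values, and all 10 were found and measured in all 12 libraries. RNA-seq libraries came from 2 mouse lines, C18-4, labelled as spermatogonial stem cells, and TM4, labelled as Sertoli cells. In each line 3 libraries were made from cells given shM5, short hairpin RNAs against the muscarinic acetylcholine receptor M5, and 3 from cells given the control hairpin shNC, so controls too carried a hairpin RNA. The study used hairpins at 3 positions of the M5 gene. Whether the libraries of a group came from separate cultures was not stated, so the p-values measure the spread between these libraries, which may be technical. The study asked what loss of M5 does to both cell types, and the comparisons below ask what these genes did with shM5 in each line, whether the lines responded differently, and how the lines differed from each other.

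NRF2, the protein of Nfe2l2, is held low by KEAP1, which passes it on for degradation. Oxidants and electrophiles modify KEAP1, and NRF2 then accumulates, pairs with a small MAF protein (MAFF, MAFG or MAFK) and binds antioxidant response elements. BACH1 competes for the same sites and represses above all the heme oxygenase gene, and SQSTM1, also called p62, takes KEAP1 out of action. The targets make and recycle glutathione, reduce thioredoxin and peroxiredoxins, break down heme, reduce quinones and supply NADPH. NRF2 itself is regulated largely as a protein, which RNA levels do not show. Several of the same targets are also served by other factors, ATF4 among them, the factor of the amino acid and unfolded protein response, which is known for activating Slc7a11, the cystine importer that feeds glutathione synthesis.

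Chrm5, the gene of M5, was listed at 0.01 RPKM in 1 C18-4 and 1 TM4 library, both with shNC, and at 0 in the other 10, so its knockdown could not be checked in these values. The study reported less M5 protein with shM5 in both lines, by immunofluorescence staining. RPKM scales the reads of a gene by its length and by the mapped reads of the library, so levels of different genes can be set side by side. Of the spermatogonial markers, Ret, Zbtb16, Ddx4 and Dazl were at or near 0 in C18-4 cells, where Gfra1 reached 0.34 RPKM and Id4 4.71 RPKM. The Sertoli marker Wt1 was at 53.9 to 72.3 RPKM in C18-4 cells and at most 0.15 RPKM in TM4 cells, and Amh was at most 0.16 RPKM in C18-4 and 0.19 RPKM in TM4 cells, so the labelled cell types were not borne out by these markers and the lines are called by name. Some libraries stood apart. In TM4 cells shNC replicates 1 and 2 lay far from shNC replicate 3, at a root mean square distance on the log2 scale of 0.640 and 0.642, whereas shNC replicate 3 lay at 0.202 to 0.257 from the 3 shM5 libraries. In C18-4 cells replicate 3 of each group lay at 0.376 to 0.491 from replicates 1 and 2 of both groups, and the replicates 3 lay at 0.322 from each other. From these values it cannot be told whether the TM4 library labels are right, which was not tested, so the shM5 differences of that line rest on the labels as given. Counts over the 10 genes are given with and without TM4 shNC replicate 3, without TM4 shNC replicates 1 and 2, and for C18-4 cells with the replicate number as a block and without the replicates 3. Leaving out TM4 shNC replicates 1 and 2 was chosen after seeing the data, and the lone shNC library is there assumed to vary like the other groups.

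Gene positions are those of the GRCm38 build with GENCODE M21 annotation, which may not be the build of the deposited values. Promoters were read from RefSeq (GRCm38.p6) as the 250 bases before its annotated gene start, which can differ from that of GENCODE. Of the 10 genes 6 had an entry, with 8 promoters in all. Hmox1, Slc48a1, Gclc and Gsr had none. The promoters were searched on both strands for the core of the antioxidant response element, TGACNNNGC, and for the AP-1 core, TGANTCA. A stretch can hold both patterns where they overlap. The first occurred in 4 of the 8 promoters, of Nfe2l2, Gclm, Txnrd1 and G6pdx, and in 10.2% of the 32851 mouse promoters of the same length. The second occurred in 1 of the 8, of Srxn1, and in 6.75% of all. A match is a description of the letters and not a site at which a factor was measured. The promoters of Gclm, Srxn1 and Nqo1 are shown because shNC replicates 1 and 2 were below the other 4 TM4 libraries for these genes, and those of Nfe2l2 and G6pdx because they hold the core and showed much smaller differences. Each is printed 5′ to 3′ on the strand of its gene, with matches to either core in capitals, so that GCACCGTCA is the response element core read on the opposite strand.
Gclm, plus strand, chr3:122245307-122245556: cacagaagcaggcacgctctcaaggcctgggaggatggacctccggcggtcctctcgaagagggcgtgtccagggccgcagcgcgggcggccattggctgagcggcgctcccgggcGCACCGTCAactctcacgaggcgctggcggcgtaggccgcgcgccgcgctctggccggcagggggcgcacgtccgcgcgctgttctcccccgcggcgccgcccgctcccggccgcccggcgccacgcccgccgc
Srxn1, plus strand, chr2:152105274-152105523: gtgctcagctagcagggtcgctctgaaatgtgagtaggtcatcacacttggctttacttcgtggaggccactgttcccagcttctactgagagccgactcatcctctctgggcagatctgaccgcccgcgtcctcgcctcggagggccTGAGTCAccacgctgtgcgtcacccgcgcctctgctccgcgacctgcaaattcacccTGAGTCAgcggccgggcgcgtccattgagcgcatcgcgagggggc
Nqo1, minus strand, chr8:107403206-107403455: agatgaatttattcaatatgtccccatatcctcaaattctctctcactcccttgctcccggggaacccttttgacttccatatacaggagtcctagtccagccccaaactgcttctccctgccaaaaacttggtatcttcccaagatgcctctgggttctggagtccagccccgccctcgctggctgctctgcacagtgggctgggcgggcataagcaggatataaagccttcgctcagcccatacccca
Nfe2l2, minus strand, chr2:75704664-75704913: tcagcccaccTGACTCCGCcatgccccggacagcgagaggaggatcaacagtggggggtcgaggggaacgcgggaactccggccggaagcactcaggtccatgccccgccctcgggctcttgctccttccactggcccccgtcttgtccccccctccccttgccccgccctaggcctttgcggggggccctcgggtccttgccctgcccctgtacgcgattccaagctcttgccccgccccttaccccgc
G6pdx, minus strand, chrX:74428881-74429130: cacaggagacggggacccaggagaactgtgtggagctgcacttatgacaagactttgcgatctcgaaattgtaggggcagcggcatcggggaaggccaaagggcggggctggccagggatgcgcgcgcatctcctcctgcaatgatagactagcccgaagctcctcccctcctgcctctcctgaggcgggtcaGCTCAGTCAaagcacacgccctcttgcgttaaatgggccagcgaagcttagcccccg

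The Gclm match began 134 bases before the RefSeq gene start, that of G6pdx 57 bases before it and that of Nfe2l2 240 bases before it. On the minus strand the GENCODE start of G6pdx is at 74429194, upstream of the printed window. That window and its match therefore lie within the GENCODE gene. Srxn1 held 2 AP-1 cores, TGAGTCA, at 102 and 45 bases before the start and no match to TGACNNNGC. The core at 45 bases continues as TGAGTCAGC, which departs from TGACNNNGC only by G in place of C. The search took exact matches only, so it cannot show that a promoter lacks a response element. Nqo1 held neither pattern in this window. The fourth match, GCTTTGTCA, lay 92 bases before 1 of the 3 annotated starts of Txnrd1.

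**Figure D1:**
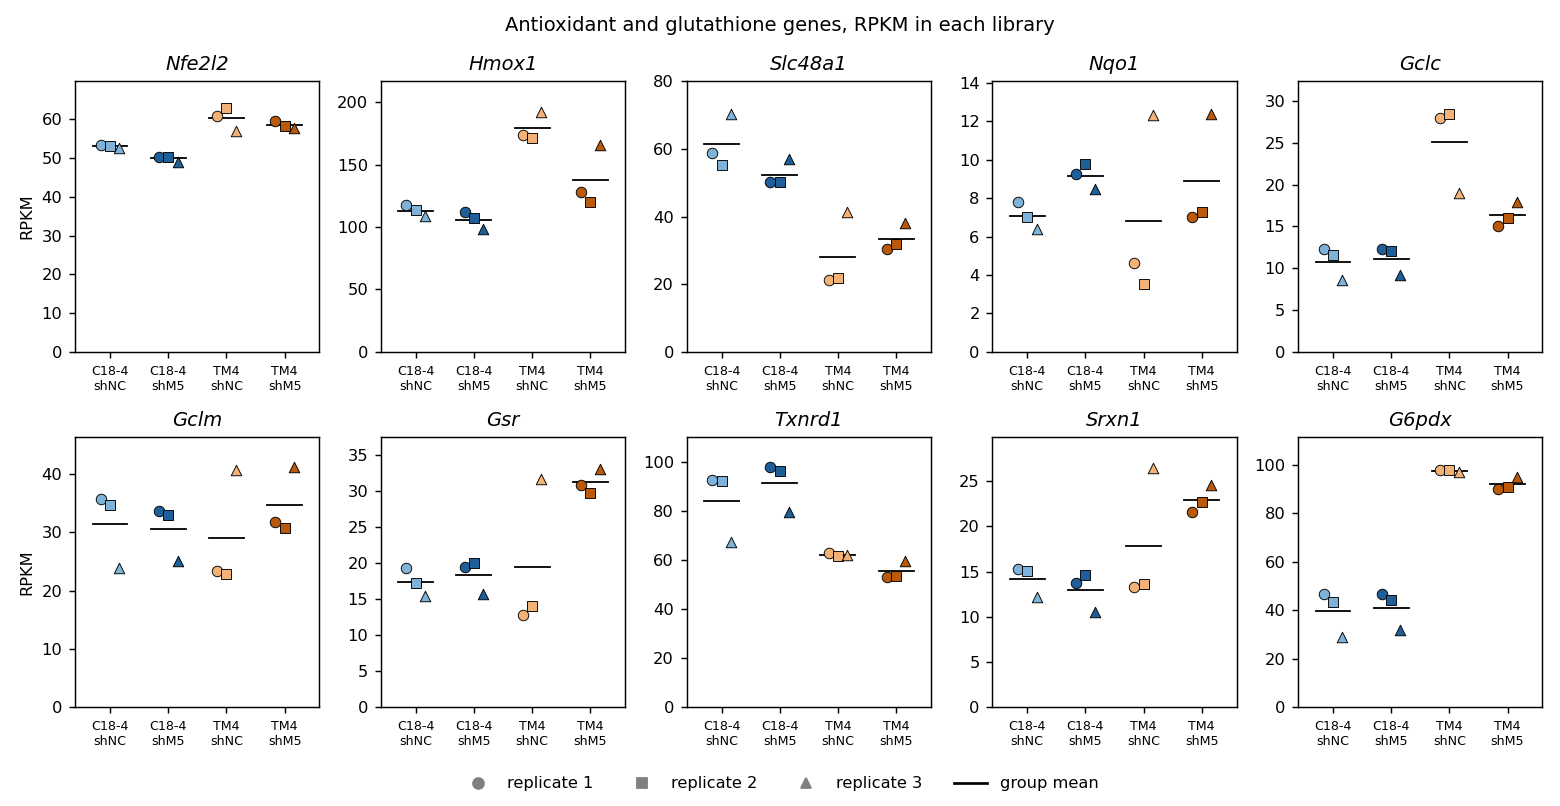
Level of each of the 10 genes in RPKM (vertical axes from 0) in the 12 libraries, by line and hairpin, with a symbol for each replicate number and a line at the group mean. In TM4 cells the shNC replicates 1 and 2 lie below the other 4 libraries for Slc48a1, Nqo1, Gclm, Gsr and Srxn1, while in C18-4 cells the replicates 3 lie lowest for Gclc, Gclm, Gsr, Txnrd1, Srxn1 and G6pdx.

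Nfe2l2 (gene 18024, minus strand, chr2:75675513-75704641) had the smallest relative spread of the 10 genes over the C18-4 libraries. There it stood at 53.2, 53.2 and 52.6 RPKM with shNC and at 50.4, 50.4 and 49.0 RPKM with shM5. TM4 cells had 60.8, 62.8 and 57.0 RPKM with shNC and 59.7, 58.2 and 57.8 RPKM with shM5. The C18-4 groups did not overlap, with shM5 lower, and the TM4 groups overlapped. The log2 fold change of shM5 over shNC was -0.09 (SE 0.06, adjusted p = 0.651, limma) in C18-4 cells and -0.04 (SE 0.07, adjusted p = 0.691) in TM4 cells, so neither difference passed the test. In bulk libraries such as these, fewer cells with a transcript and less of it per cell cannot be told apart.

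Hmox1 encodes heme oxygenase 1, which breaks heme down to biliverdin, iron and carbon monoxide (gene 15368, plus strand, chr8:75093621-75100589). It was the most highly expressed of the 10 genes by RPKM. With shNC it stood at 117, 113 and 109 RPKM in C18-4 cells, and with shM5 at 112, 107 and 98.1 RPKM. In TM4 cells the values were 174, 171 and 193 RPKM with shNC and 128, 120 and 166 RPKM with shM5, so that every shM5 library was below every shNC library. The TM4 log2 fold change was -0.39 (SE 0.13), which did not pass adjustment over all genes (adjusted p = 0.192), and the value without shNC replicate 3 was -0.34 (SE 0.12, adjusted p = 0.0387). The highest shNC value was that of replicate 3, and the pair of shNC libraries that stood apart lay between it and the shM5 libraries. In C18-4 cells the log2 fold change was -0.10 (SE 0.07, adjusted p = 0.698).

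Slc48a1 encodes HRG1, which carries heme out of endosomes and lysosomes into the cytosol (gene 67739, plus strand, chr15:97778520-97792692, overlapping Hdac7 on the other strand). The strand of the reads is not given in the sources used here, so reads of overlapping genes may not be told apart. C18-4 cells had 58.7, 55.2 and 70.4 RPKM with shNC and 50.2, 50.1 and 57.0 RPKM with shM5. Within each replicate number the shM5 value was the lower, and the groups overlapped only through replicate 3 of shM5. Without a replicate block the log2 fold change of -0.22 had an SE of 0.11 and an adjusted p of 0.483. With the replicate number as a block the SE was 0.05 and the decrease passed the test (adjusted p = 0.0316). TM4 cells had 21.3, 21.7 and 41.4 RPKM with shNC and 30.4, 31.9 and 38.2 RPKM with shM5. The first pair of shNC libraries was lowest and the third highest of all 6, and the log2 fold change was 0.31 (SE 0.27, adjusted p = 0.404) with all libraries and 0.63 (SE 0.09, adjusted p = 0.000610) without shNC replicate 3.

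Nqo1 encodes the quinone reductase that reduces quinones without releasing semiquinone radicals (gene 18104, minus strand, chr8:107388225-107403206). It had the lowest mean level of the 10 genes in either line. In C18-4 cells its RPKM were 7.82, 7.05 and 6.38 with shNC and 9.24, 9.76 and 8.47 with shM5. Every shM5 library was above every shNC library, and the log2 fold change was 0.37 (SE 0.11, unadjusted p = 0.0130, adjusted p = 0.246). With the replicate block the SE was 0.08 and the increase passed the test (adjusted p = 0.0244). In TM4 cells the RPKM were 4.65, 3.53 and 12.3 with shNC and 7.05, 7.28 and 12.4 with shM5. Here both replicates 3 were high and nearly equal, and the log2 fold change was 0.54 (SE 0.48, adjusted p = 0.421), or 1.07 (SE 0.24, adjusted p = 0.00534) without shNC replicate 3.

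Gclc and Gclm encode the catalytic and the modifier subunit of glutamate-cysteine ligase, the first and rate-limiting enzyme of glutathione synthesis. Gclc (gene 14629, plus strand, chr9:77754535-77794485) stood at 12.3, 11.6 and 8.54 RPKM with shNC and at 12.33, 12.01 and 9.14 RPKM with shM5 in C18-4 cells. TM4 cells had 28.0, 28.5 and 19.0 RPKM with shNC and 15.03, 16.03 and 17.97 RPKM with shM5. All 3 TM4 shM5 libraries were below all 3 shNC libraries, with a log2 fold change of -0.60 (SE 0.17, unadjusted p = 0.0122, adjusted p = 0.192). Without shNC replicate 3 it was -0.79 (SE 0.08, adjusted p = 6.99e-05). Gclm (gene 14630, plus strand, chr3:122245557-122270732, overlapping Gm17494 on the other strand and the pseudogene Gm6061) had 35.8, 34.8 and 23.9 RPKM with shNC and 33.7, 33.0 and 25.0 RPKM with shM5 in C18-4 cells. The 2 subunits went opposite ways among the TM4 libraries, since Gclm stood at 23.4, 22.9 and 40.7 RPKM with shNC and at 31.9, 30.8 and 41.3 RPKM with shM5. Its TM4 log2 fold change was 0.30 (SE 0.25, adjusted p = 0.396) with all libraries and 0.57 (SE 0.12, adjusted p = 0.00344) without shNC replicate 3. In C18-4 cells the log2 fold changes were 0.05 (SE 0.18, adjusted p = 0.958) for Gclc and -0.03 (SE 0.18, adjusted p = 0.980) for Gclm.

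Gsr encodes glutathione reductase, which returns oxidised glutathione to its reduced form (gene 14782, plus strand, chr8:33652523-33698163). Its C18-4 levels were 19.3, 17.3 and 15.5 RPKM with shNC and 19.4, 20.1 and 15.8 RPKM with shM5. In TM4 cells it had 12.84, 14.03 and 31.64 RPKM with shNC and 30.9, 29.8 and 33.2 RPKM with shM5. The first pair of shNC libraries stood at less than 15 RPKM and the other 4 libraries lay between 29.8 and 33.2 RPKM. The log2 fold change was 0.80 (SE 0.33, unadjusted p = 0.0497, adjusted p = 0.192) with all libraries, and 1.21 (SE 0.07, adjusted p = 4.25e-06) without shNC replicate 3. In C18-4 cells it was 0.09 (SE 0.13, adjusted p = 0.871).

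Txnrd1 encodes the cytosolic thioredoxin reductase (gene 50493, plus strand, chr10:82833951-82897712, overlapping Eid3 on the same strand). C18-4 cells had 92.9, 92.3 and 67.3 RPKM with shNC and 98.2, 96.6 and 79.8 RPKM with shM5, higher with shM5 within each replicate number (log2 fold change 0.13, SE 0.15, adjusted p = 0.818, and SE 0.05 with adjusted p = 0.143 under the block). TM4 cells had 62.8, 61.7 and 62.1 RPKM with shNC and 53.4, 53.5 and 59.9 RPKM with shM5. The TM4 groups did not overlap, and the 3 shNC libraries lay close together. The log2 fold change was -0.16 (SE 0.07, adjusted p = 0.195), and -0.17 (SE 0.06, adjusted p = 0.0370) without shNC replicate 3.

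Srxn1 encodes sulfiredoxin, which repairs over-oxidised peroxiredoxins (gene 76650, plus strand, chr2:152105516-152111376). It stood at 15.3, 15.1 and 12.2 RPKM with shNC and at 13.7, 14.7 and 10.5 RPKM with shM5 in C18-4 cells. Each shM5 value was below the shNC value of its number, with a log2 fold change of -0.13 (SE 0.15, adjusted p = 0.820). In TM4 cells it had 13.3, 13.7 and 26.4 RPKM with shNC and 21.6, 22.6 and 24.6 RPKM with shM5. Its shNC replicate 3 was the highest of the 6 and the other shNC libraries the lowest, and the log2 fold change was 0.44 (SE 0.27, adjusted p = 0.269), or 0.76 (SE 0.07, adjusted p = 3.72e-05) without shNC replicate 3.

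G6pdx encodes glucose-6-phosphate dehydrogenase, the entry enzyme of the pentose phosphate pathway and a main source of NADPH (gene 14381, minus strand, chrX:74409483-74429194). It overlaps Ikbkg on the other strand. Of the 50-base windows of its longest coding transcript, 7.65% also occur in G6pd2. G6pd2 has no values in these data, and how reads shared with that copy were counted is not known. Its RPKM in C18-4 cells were 46.7, 43.3 and 28.9 with shNC and 46.7, 44.3 and 31.7 with shM5. Replicate 3 was the lowest in both groups. TM4 cells had 98.0, 97.9 and 96.9 RPKM with shNC and 89.9, 91.0 and 94.8 RPKM with shM5. The TM4 groups did not overlap, but the log2 fold change was only -0.09 (SE 0.06, adjusted p = 0.319), and -0.09 (SE 0.04, adjusted p = 0.0747) without shNC replicate 3. In C18-4 cells it was 0.06 (SE 0.21, adjusted p = 0.963).

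With shM5 in C18-4 cells, 0 of the 10 genes passed an adjusted p of 0.05 in limma, 5 having a positive and 5 a negative log2 fold change. Of all 11611 genes tested, 0.586% passed. At an unadjusted p under 0.05, 1 of the 10 (Nqo1) passed, against 12.3% of all genes. The groups did not overlap in 2 of the 10, Nqo1 (shM5 higher) and Nfe2l2 (shM5 lower), against 18.9% of all genes (9.30% with shM5 higher and 9.55% with shM5 lower). C18-4 libraries of the same number deviated together, though numbers 1 and 2 did so nearly as much across numbers. With the number as a block, which was chosen from these data, 2 of the 10 passed, Nqo1 (higher) and Slc48a1 (lower), against 11.9% of all genes (5.21% higher and 6.73% lower). These were also the 2 that passed without replicate 3 of both groups (Nqo1 0.35, SE 0.08, adjusted p = 0.0124, and Slc48a1 -0.18, SE 0.05, adjusted p = 0.0167). In that fit 3029 of the 11549 genes tested passed. The median log2 fold change was 0.01 over the 10 genes and -0.00 over all genes tested.

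With shM5 in TM4 cells 0 of the 10 genes passed in limma, and 0.00% of the 11016 genes tested did. At an unadjusted p under 0.05, 3 of the 10 passed (Gclc, Hmox1 and Gsr), against 26.0% of all genes. The groups did not overlap in 4 of the 10, Hmox1, Gclc, Txnrd1 and G6pdx, all lower with shM5. Of all genes, 26.8% did not overlap and 11.1% were lower with shM5 without overlap. Without shNC replicate 3, 8 of the 10 passed, against 67.4% of all genes (36.5% higher and 30.9% lower), and leaving out any other single TM4 library left 0. Of these 8, Gsr, Nqo1, Srxn1, Slc48a1 and Gclm were higher with shM5 and Gclc, Hmox1 and Txnrd1 lower. Without replicate 3 of both groups G6pdx passed as well (-0.12, SE 0.03, adjusted p = 0.0120), which made 9 of the 10. In that fit 8016 of the 11030 genes tested passed. Without shNC replicates 1 and 2 the count was 0 of the 10, against 0.00% of the 10974 genes tested, and 2 of the 10 (Hmox1 and Slc48a1) and 528 of all genes had an unadjusted p under 0.05. The log2 fold changes were then negative for 9 of the 10, among them Slc48a1 (-0.31, SE 0.13, adjusted p = 0.908), Nqo1 (-0.51, SE 0.30, adjusted p = 0.908) and Hmox1 (-0.49, SE 0.17, adjusted p = 0.908), and Gsr was at -0.02 (SE 0.08, adjusted p = 0.982). The signs for Slc48a1, Nqo1, Gclm, Gsr and Srxn1 thus depended on which shNC libraries were used.

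**Figure D2:**
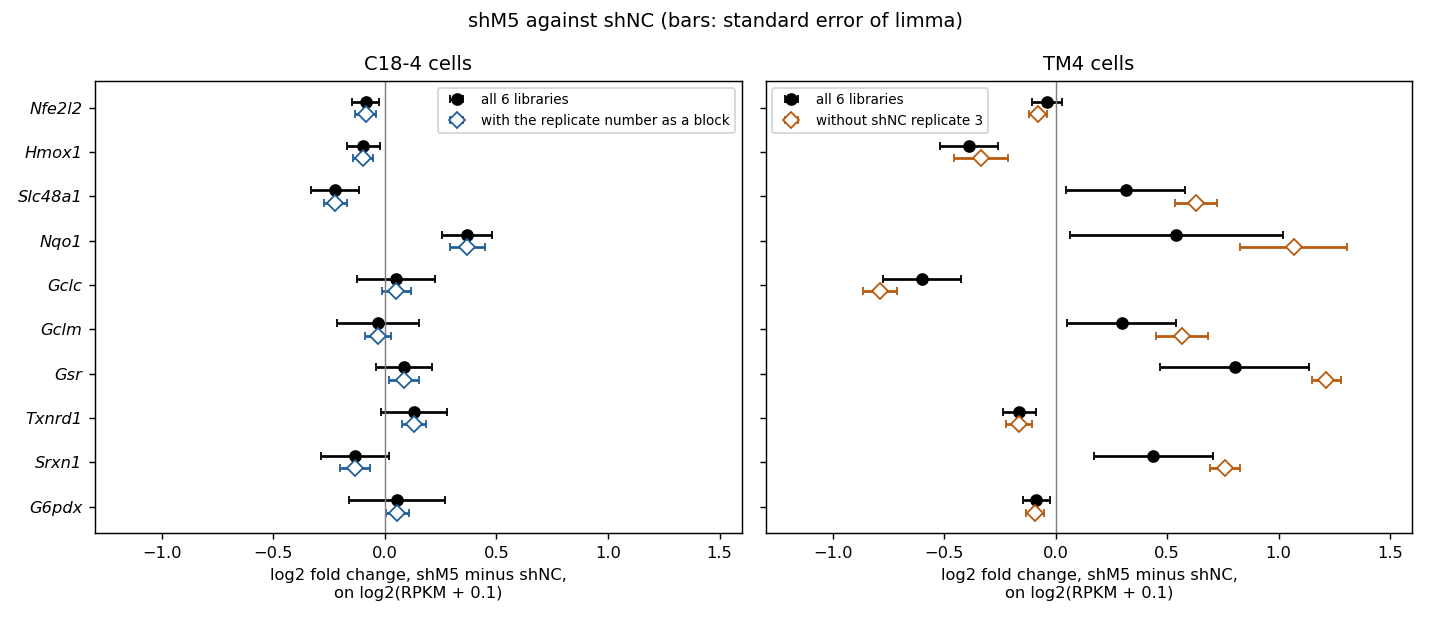
Log2 fold change of shM5 over shNC on log2(RPKM + 0.1) (horizontal axis) for each gene in C18-4 (left) and TM4 cells (right), with bars of 1 standard error from limma. Filled circles use all 6 libraries, and open diamonds add the replicate block in C18-4 cells or leave out shNC replicate 3 in TM4 cells, where Gsr moved from 0.80 to 1.21 and Nqo1 from 0.54 to 1.07.

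The order of the TM4 libraries is given as a description. In 5 of the 10 (Slc48a1, Nqo1, Gclm, Gsr and Srxn1) shNC replicates 1 and 2 were both below the other 4 libraries, as in 40.7% of all genes tested, and in 3 (Nfe2l2, Gclc and G6pdx) both were above them, as in 35.4% of all genes. A list of 12 ATF4 targets was above in 12 of 12. Its median level, relative to the mean of the line on the log2 scale, was 1.04 and 1.05 in these libraries and between -0.62 and -0.53 in the other 4. Its summed level was 2653 and 2654 RPKM against 1065 to 1129 RPKM. The median of the 10 genes was -0.18 and -0.19 in those libraries, 0.35 in shNC replicate 3 and -0.02 to 0.20 with shM5. The summed level of 5 peritubular and fibroblast markers was 503 to 809 RPKM with shNC and 859 to 1029 RPKM with shM5 in TM4 cells. In C18-4 cells it was 305 to 348 and 337 to 444 RPKM. The C18-4 sum was mostly Col1a1, at 287 to 386 RPKM, with Acta2 at 15.9 to 61.8 RPKM. There Col1a2 was at most 0.19 RPKM and Pdgfra at most 1.85 RPKM. Myh11 was at most 0.07 RPKM in any library of either line. The summed levels of 5 Leydig and 4 macrophage markers were at most 1.58 and 4.28 RPKM in any library. The part of these levels in the shM5 differences was not tested.

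Among the C18-4 libraries the replicates 3 were low in many of these genes. In 6 of the 10 (Gclc, Gclm, Gsr, Txnrd1, Srxn1 and G6pdx) replicate 3 of both groups lay below the other 4 libraries, as in 16.2% of all genes tested, and in 0 it lay above, as in 34.4% of all genes. The ATF4 targets were above in 11 of 12 and below in 1, with a median of 0.51 and 0.59 in the replicates 3 against -0.27 to -0.23 in the other 4, and a summed level of 1751 and 1623 RPKM against 1054 to 1097 RPKM. Within replicate numbers, 4 genes were higher with shM5 in 3 of 3 (Nqo1, Gclc, Gsr and Txnrd1), as were 24.7% of all genes, and 4 were lower in 3 of 3 (Nfe2l2, Hmox1, Slc48a1 and Srxn1), as were 25.8% of all genes.

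**Figure D3:**
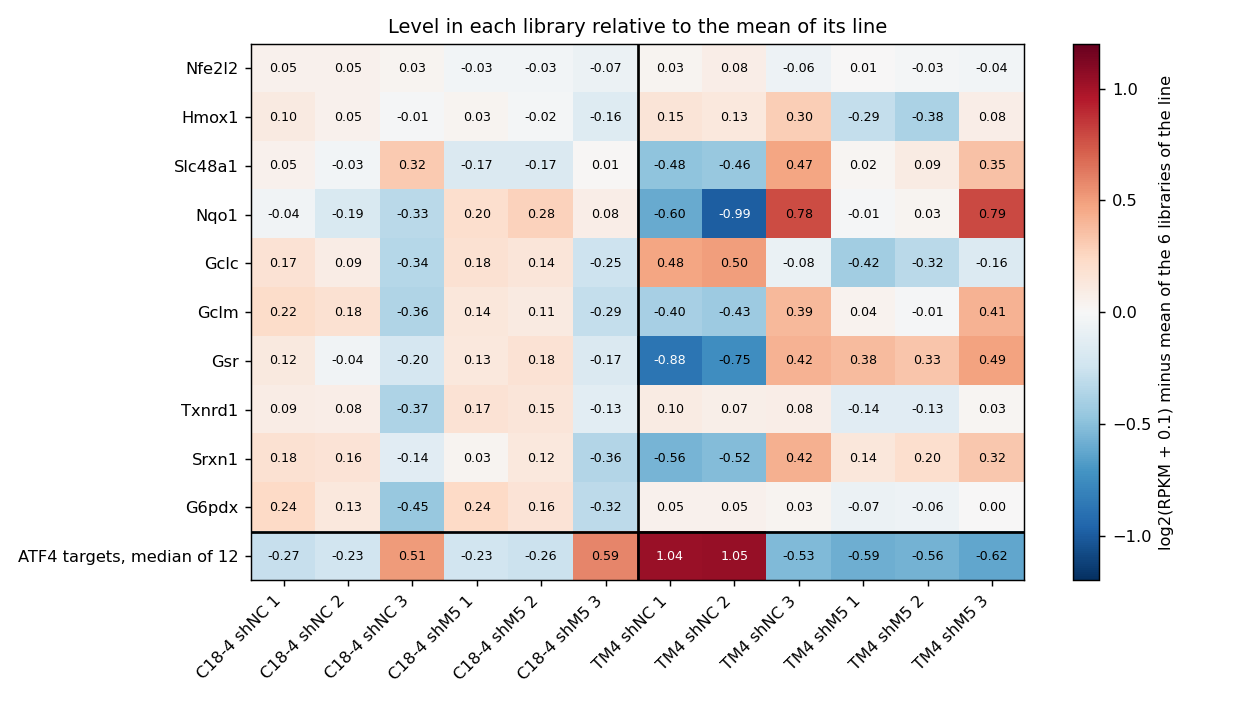
Level of the 10 genes in each library on log2(RPKM + 0.1), as the difference from the mean of the 6 libraries of its line (colour and printed value, red higher, blue lower), with the median of 12 ATF4 targets in the last row. TM4 shNC replicates 1 and 2 have a median of 1.04 and 1.05 for the ATF4 targets and values from -0.99 to -0.40 for Slc48a1, Nqo1, Gclm, Gsr and Srxn1.

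The 12 libraries were also fitted together to ask whether shM5 acted differently in C18-4 and TM4 cells. For this interaction 0 of the 10 genes passed in limma, against 0.102% of the 11773 genes tested, and 1 (Gclc) had an unadjusted p under 0.05, against 20.9% of all genes. For Gclc the C18-4 effect exceeded the TM4 effect by 0.65 on the log2 scale (SE 0.26, unadjusted p = 0.0314, adjusted p = 0.222). With the replicate block 6 of the 10 had an unadjusted p under 0.05 in limma, and the lowest adjusted p was 0.152. The share of all genes at that unadjusted p under the block is not given here. Without TM4 shNC replicate 3, 4 of the 10 passed, against 38.0% of all genes. These were Gsr (-1.13, SE 0.16, adjusted p = 0.000493), Slc48a1 (-0.85, SE 0.16, adjusted p = 0.00238), Srxn1 (-0.89, SE 0.19, adjusted p = 0.00479) and Gclc (0.84, SE 0.22, adjusted p = 0.0139). Nqo1, which had positive log2 fold changes in both lines, did not pass either way, with adjusted p of 0.854 and 0.0882. Without TM4 shNC replicates 1 and 2, 0 of the 10 and 0.00% of all genes passed, and 1 of the 10 (Nqo1, 0.88, SE 0.34, adjusted p = 0.737) and 714 of all genes had an unadjusted p under 0.05.

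Between the lines, in the shNC libraries 6 of the 10 passed, 2 higher and 4 lower in C18-4 cells, against 65.6% of all genes (40.0% higher and 25.6% lower). The same 6 did not overlap between the lines in the shNC libraries, against 63.5% of all genes, nor over all 12 libraries. At the threshold of the study, an absolute log2 difference of at least 1 and a smaller adjusted p, 3 of the 10 (G6pdx, Gclc and Slc48a1) passed, against 26.1% of all genes. C18-4 cells had more Slc48a1 (2.18 times by the group means, log2 difference 1.19, SE 0.22, adjusted p = 0.000522) and more Txnrd1 (1.35 times, 0.42, SE 0.12, adjusted p = 0.0110). TM4 cells had more G6pdx (2.46 times, C18-4 minus TM4 -1.33, SE 0.17, adjusted p = 3.88e-05), Gclc (2.33 times, -1.21, SE 0.19, adjusted p = 0.000154), Hmox1 (1.58 times, -0.66, SE 0.11, adjusted p = 0.000262) and Nfe2l2 (1.14 times, -0.18, SE 0.06, adjusted p = 0.0188). Nfe2l2 did not pass without TM4 shNC replicate 1 (-0.17, adjusted p = 0.0578) or replicate 2 (-0.15, adjusted p = 0.0791). Over all genes the median difference was 0.15 towards C18-4. After centring each library on the median of its genes Txnrd1 did not pass (0.29, SE 0.16, adjusted p = 0.119).

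Nqo1 (0.26, SE 0.37, adjusted p = 0.554), Gclm (0.15, SE 0.24, adjusted p = 0.598), Gsr (-0.05, SE 0.27, adjusted p = 0.881) and Srxn1 (-0.26, SE 0.23, adjusted p = 0.345) did not pass between the lines, and these were 4 of the 5 genes with the widest relative spread in the TM4 shNC group, Slc48a1 being the other. The sign for Nqo1 was negative after quantile normalisation. Without TM4 shNC replicate 3 Nqo1 (0.79, SE 0.22, adjusted p = 0.00796) and Gsr (0.36, SE 0.12, adjusted p = 0.0184) passed as well, both higher in C18-4 cells, which made 8 of the 10 against 73.5% of all genes. In the shM5 libraries 8 of the 10 passed, against 61.1% of all genes, and there Gsr (-0.77, SE 0.27, adjusted p = 0.0277) and Srxn1 (-0.83, SE 0.23, adjusted p = 0.00850) were lower in C18-4 cells. Without TM4 shNC replicates 1 and 2, 7 of the 10 passed, 1 higher and 6 lower in C18-4 cells, against 55.8% of all genes (35.2% higher and 20.7% lower). These were Slc48a1 (0.56, SE 0.16, adjusted p = 0.0144), Hmox1, Gclc and G6pdx, with Nqo1 (-0.79, SE 0.28, adjusted p = 0.0340), Gsr (-0.87, SE 0.16, adjusted p = 0.00109) and Srxn1 (-0.90, SE 0.19, adjusted p = 0.00295), whereas Nfe2l2 (-0.10, SE 0.07, adjusted p = 0.211) and Txnrd1 (0.42, SE 0.19, adjusted p = 0.0797) did not pass. The directions for Gsr and Nqo1 between the lines thus depended on which TM4 libraries were used.

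**Figure D4:**
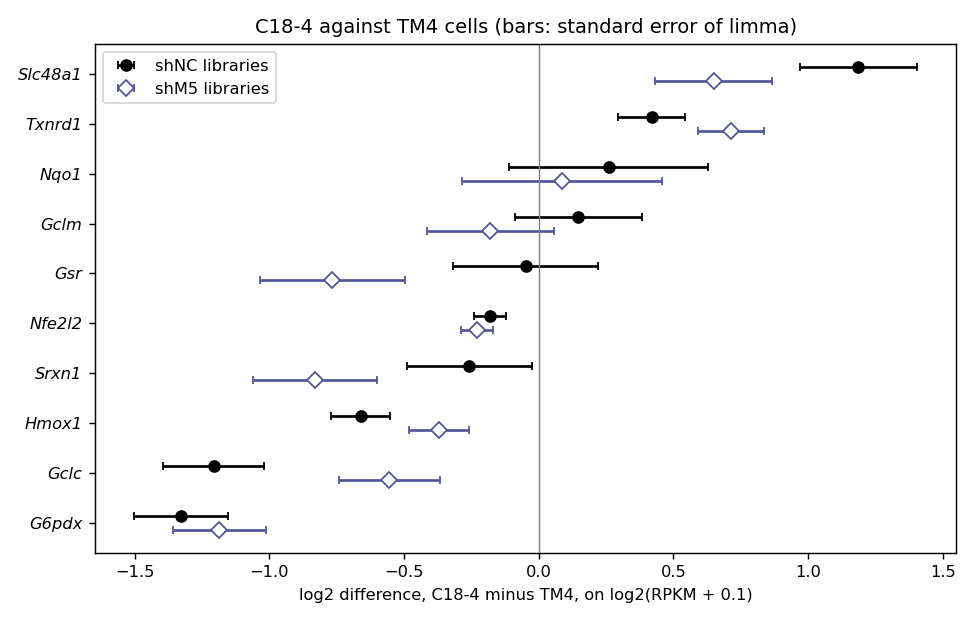
Log2 difference between the lines, C18-4 minus TM4, on log2(RPKM + 0.1) (horizontal axis), for the shNC libraries (filled circles) and the shM5 libraries (open diamonds), with bars of 1 standard error from limma. Slc48a1 and Txnrd1 lie to the right of 0 and G6pdx, Gclc, Hmox1 and Nfe2l2 to the left in both sets, while Gclm is at 0.15 in one and -0.18 in the other.

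The regulators of NRF2 were examined beside the 10 genes. Keap1 stood at 14.7, 14.8 and 12.5 RPKM with shNC and at 14.4, 16.0 and 13.1 RPKM with shM5 in C18-4 cells. In TM4 cells Keap1 had 8.29, 7.84 and 14.5 RPKM with shNC and 14.6, 16.1 and 16.1 RPKM with shM5, low in the same pair of libraries as Gsr. Its TM4 log2 fold change was 0.66 (SE 0.24, adjusted p = 0.192), and 0.94 (SE 0.07, adjusted p = 1.65e-05) without shNC replicate 3. Without shNC replicates 1 and 2 it was 0.10 (SE 0.09, adjusted p = 0.920). Sqstm1 went the other way, with 484, 463 and 110 RPKM with shNC and 85.3, 88.3 and 97.4 RPKM with shM5 in TM4 cells (-1.69, SE 0.56, adjusted p = 0.192, and -2.39, SE 0.06, adjusted p = 2.33e-07 without shNC replicate 3). Without shNC replicates 1 and 2 its difference was -0.29 (SE 0.08, adjusted p = 0.908). In C18-4 cells Sqstm1 was at 299 and 306 RPKM in the replicates 3 and at 196 to 211 RPKM in the other 4 libraries.

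Among the small MAF genes, Mafk increased with shM5 in C18-4 cells, from 19.8, 19.4 and 21.3 RPKM to 28.5, 28.0 and 30.7 RPKM (log2 fold change 0.52, SE 0.08, adjusted p = 0.0459). In TM4 cells it had 24.2, 23.5 and 11.4 RPKM with shNC and 11.3, 12.3 and 11.1 RPKM with shM5 (-0.69, SE 0.29, adjusted p = 0.192, and -1.04, SE 0.06, adjusted p = 6.72e-06 without shNC replicate 3, and 0.02, SE 0.10, adjusted p = 0.987 without shNC replicates 1 and 2). The interaction for Mafk was 1.21 (SE 0.32, unadjusted p = 0.00279, adjusted p = 0.147). Mafg was higher with shM5 within each number in C18-4 cells and passed under the block (0.26, SE 0.05, adjusted p = 0.0170), and in TM4 cells every shM5 library was below every shNC library (-0.43, SE 0.12, adjusted p = 0.192, and -0.55, SE 0.07, adjusted p = 0.000334 without shNC replicate 3). Maff and Bach1 did not pass in C18-4 cells (-0.19, SE 0.23, adjusted p = 0.838, and 0.09, SE 0.12, adjusted p = 0.861), nor in TM4 cells with all libraries (-0.40, SE 0.15, adjusted p = 0.192, and 0.15, SE 0.12, adjusted p = 0.375). Without shNC replicate 3 both passed in TM4 cells (Maff -0.55, SE 0.07, adjusted p = 0.000346, and Bach1 0.24, SE 0.08, adjusted p = 0.0347). Without shNC replicates 1 and 2 neither did, nor Mafg (adjusted p = 0.926, 0.979 and 0.908).

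**Figure D5:**
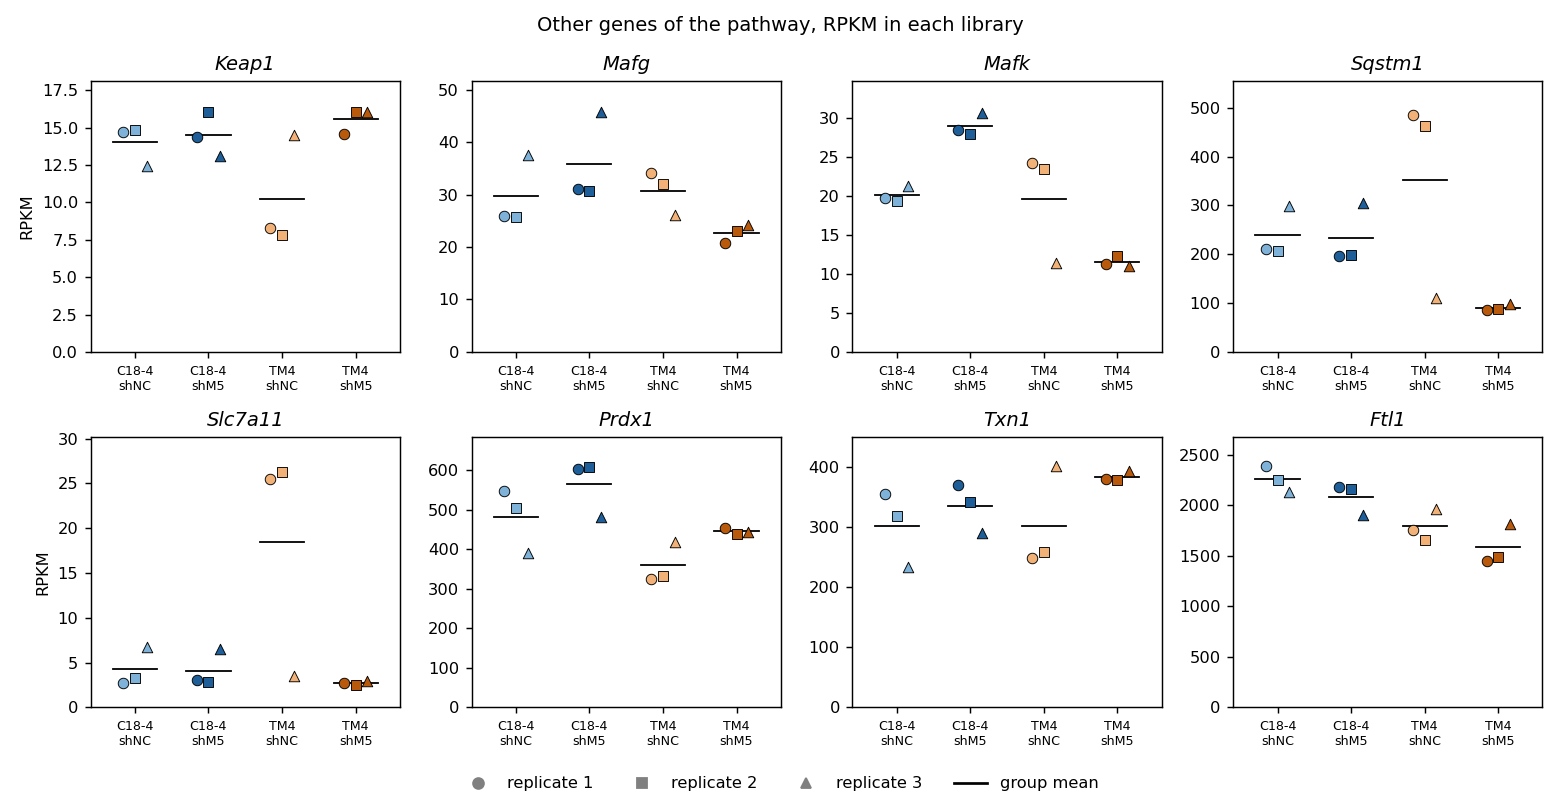
Level in RPKM (vertical axes from 0) of Keap1, Mafg, Mafk, Sqstm1, Slc7a11, Prdx1, Txn1 and Ftl1 in the 12 libraries, by line and hairpin, with a symbol for each replicate number and a line at the group mean. In TM4 cells Sqstm1 is at 484 and 463 RPKM and Slc7a11 at 25.5 and 26.3 RPKM in shNC replicates 1 and 2, against at most 110 and 3.55 RPKM in the other 4 libraries.

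Around the 10 genes, 6 lists of pathway genes were examined, for NRF2 regulators, glutathione metabolism, thioredoxin and peroxiredoxin, heme and iron, NADPH supply, and phase II and other targets. They named 165 genes, of which 163 had values. In C18-4 cells 3 of 140 tested passed with shM5, against 0.586% of all genes. Mafk rose, and Xdh, the gene of xanthine oxidoreductase, and Ces2g, a carboxylesterase gene, fell. Xdh stood at 7.15, 7.59 and 11.5 RPKM with shNC and at 2.91, 3.14 and 3.50 RPKM with shM5 (-1.40, SE 0.19, adjusted p = 0.0410), and Ces2g at 3.22, 3.55 and 2.50 RPKM and at 1.27, 0.88 and 1.12 RPKM (-1.42, SE 0.20, adjusted p = 0.0410). Of the 6 fits that each left out 1 C18-4 library, the 3 genes passed only in that without shNC replicate 3, with adjusted p up to 0.268 for Mafk, 0.251 for Xdh and 0.244 for Ces2g, and in 4 of these fits no gene at all passed in limma (770 to 998 at an unadjusted p under 0.05). Under the replicate block the 3 passed (adjusted p = 0.00208 for Mafk, 0.000912 for Xdh and 0.00364 for Ces2g), as they did without replicate 3 of both groups (adjusted p = 0.000110, 3.40e-05 and 0.000327). In all 29 of 140 passed under the block, 12 higher and 17 lower with shM5, against 11.9% of all genes (5.21% higher and 6.73% lower). The median log2 fold change was -0.01 over the 140 genes and -0.00 over all genes.

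By list, the C18-4 counts under the block were 2 of 15 regulators, 1 of 21 glutathione genes, 3 of 22 thioredoxin and peroxiredoxin genes, 4 of 22 heme and iron genes, 5 of 20 NADPH genes and 14 of 40 phase II and other target genes, of which 11 were lower, against the same 11.9% of all genes and 6.73% lower. Of 15 genes named from these lists whatever their values, those that passed with the block and not without it were Prdx1, a peroxiredoxin (0.24, SE 0.05, adjusted p = 0.0167), Me1, the cytosolic malic enzyme that makes NADPH (0.25, SE 0.05, adjusted p = 0.0201), Fth1, the ferritin heavy chain (-0.17, SE 0.04, adjusted p = 0.0295), Gpx4, the peroxidase of lipid peroxides (-0.15, SE 0.04, adjusted p = 0.0496), and Mafg. Gss, glutathione synthetase (0.04, SE 0.11, adjusted p = 0.855), Txn1, thioredoxin (0.16, SE 0.06, adjusted p = 0.0991), Ftl1, the ferritin light chain (-0.12, SE 0.04, adjusted p = 0.105), Pgd, an enzyme of the pentose phosphate pathway (0.15, SE 0.07, adjusted p = 0.197), and Slc7a11 (-0.05, SE 0.11, adjusted p = 0.807) did not pass under it.

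In TM4 cells 0 of 136 pathway genes passed with all libraries and 49 had an unadjusted p under 0.05, against 26.0% of all genes, with a median of 0.11 against 0.04 over all genes. Without shNC replicate 3, 103 of 136 passed, 63 higher and 40 lower with shM5, against 67.4% of all genes (36.5% higher and 30.9% lower). Without shNC replicates 1 and 2, 0 of 136 passed and 14 had an unadjusted p under 0.05. Slc7a11 was at 25.5, 26.3 and 3.55 RPKM with shNC and at 2.78, 2.52 and 2.92 RPKM with shM5, so that the high values lay in the libraries in which Gclm and Gsr were low. Cth, the enzyme that makes cysteine from cystathionine, had 160, 162 and 19.0 RPKM with shNC and 13.7, 15.0 and 14.7 RPKM with shM5. Glrx, glutaredoxin, had the opposite order, with 11.1, 12.5 and 49.7 RPKM with shNC and 53.3, 51.0 and 43.8 RPKM with shM5. Pgd, Txn1 and Prdx1 were also lowest in shNC replicates 1 and 2, and their log2 fold changes were 0.52 (SE 0.30, adjusted p = 0.256), 0.38 (SE 0.18, adjusted p = 0.205) and 0.32 (SE 0.11, adjusted p = 0.192) with all libraries. Without shNC replicate 3 they were 0.88 (SE 0.08, adjusted p = 4.93e-05), 0.60 (SE 0.04, adjusted p = 9.57e-06) and 0.44 (SE 0.04, adjusted p = 3.38e-05), and without shNC replicates 1 and 2 -0.21 (SE 0.11, adjusted p = 0.908), -0.06 (SE 0.05, adjusted p = 0.920) and 0.09 (SE 0.05, adjusted p = 0.908).

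The lists without the 10 genes differed between the lines in 101 of 146 tested, 58 higher and 43 lower in C18-4 cells, against 65.6% of all genes (40.0% higher and 25.6% lower), with a median of 0.12 against 0.15 over all genes. Among glutathione S-transferases, Gsta1 was at 39.3 to 46.3 RPKM in the C18-4 shNC libraries and listed at 0 in all 6 TM4 libraries, and Gsta4 at 463 to 674 RPKM against 2.23 to 2.80 RPKM (7.81, SE 0.16, adjusted p = 3.79e-12). Gstt3 was listed at 0 in all 6 C18-4 libraries and stood at 3.34 to 5.78 RPKM in the TM4 shNC libraries. Cbr3, a carbonyl reductase gene, was listed at 0 in all TM4 libraries and at 15.8 to 22.8 RPKM with shNC in C18-4 cells, and Nfe2l3, a relative of Nfe2l2, at 5.08 to 6.10 RPKM against 0.02 to 0.07 RPKM. Gpx7, a glutathione peroxidase relative of the endoplasmic reticulum, reached 0.06 RPKM in C18-4 cells and 14.6 to 15.9 RPKM in TM4 shNC libraries, and Sod3, the extracellular superoxide dismutase, 0.12 RPKM and 12.2 to 20.1 RPKM. Keap1 was higher in C18-4 cells (0.51, SE 0.20, adjusted p = 0.0393), and Maff (-0.87, SE 0.21, adjusted p = 0.00386) and Slc7a11 (-1.74, SE 0.66, adjusted p = 0.0357) were lower. Without TM4 shNC replicate 3 the differences were 0.79 (SE 0.11, adjusted p = 5.86e-05), -1.02 (SE 0.22, adjusted p = 0.00158) and -2.69 (SE 0.39, adjusted p = 9.67e-05), in the same order. Without TM4 shNC replicates 1 and 2 they were -0.05 (SE 0.14, adjusted p = 0.775), -0.56 (SE 0.29, adjusted p = 0.128) and 0.14 (SE 0.53, adjusted p = 0.835), so that none passed. In the shM5 libraries the differences were -0.10 (SE 0.20, adjusted p = 0.669) for Keap1, -0.65 (SE 0.21, adjusted p = 0.0196) for Maff and 0.46 (SE 0.66, adjusted p = 0.566) for Slc7a11.

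For each of the 10 genes, the genes with the most similar pattern over the 12 libraries were found by Pearson's r of log2(RPKM + 0.1), after centring each line. The search covered 8769 genes whose mean was 5 RPKM or more. The libraries of a line share the few that stand apart, so high values are common. Gsr was most like Stard4 and Fbxw2 (both r = 0.991), Gclc like Polr1b (0.983) and Ltv1 (0.981), and Srxn1 like Vim (0.981) and Ckap4 (0.980). Gclm followed Tmsb4x (0.980) and Lgals1 (0.972), Txnrd1 followed Ccnyl1 (0.981) and Gpatch4 (0.961), and G6pdx followed Bysl (0.977) and Timm17a (0.974). Nqo1 was closest to Dusp5 (0.969) and Wsb2 (0.956), Slc48a1 to Timp2 (0.964) and Pgm2 (0.958), and Nfe2l2 to Ppfibp1 (0.957) and Yap1 (0.935). Hmox1 had the lowest values, 0.904 with Ftl1 and 0.871 with Gadd45gip1.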

How the data were processed

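The 12 RNA-seq libraries were grouped by line and hairpin from their titles, which also give the replicate number. RPKM were deposited, with 2 decimals. The authors made them from poly(A)-selected mRNA, sequenced on a HiSeq and mapped with SOAPaligner. Genome build and annotation are not given in the sources used here. RPKM keeps no read numbers. The value of 1 read, judged from low values of 46 genes (36 to 42 per library, tolerance 0.15 read), had a relative size of 0.992 to 1.02 across libraries. Only genes whose values were all near whole multiples of a shared step were kept. These sizes therefore cannot show whether depth was similar, and the absolute depth is unknown. RPKM above 0 were found for 13625 to 14566 genes per library.

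log2(RPKM + 0.1) was fitted, for genes averaging 0.5 RPKM or more, with limma 3.58.1 (R 4.3.3, eBayes with trend), each line on its own, and both lines in 1 fit for the interaction and the line contrast. Fold changes are on this scale, which understates low genes. Benjamini-Hochberg adjustment ran over all genes tested, and calls were made at 0.05. The fit was tested on simulated data with independent noise between libraries. Those data held no libraries that stand apart, so that test does not bear on calls that depend on such libraries. C18-4 libraries of the same number deviated together (correlations over genes 0.439, 0.409 and 0.631), so the block is given beside each result it changes. This pairing was read from the data, since the titles give the numbers only. Alternatives were other pseudocounts (1 and 0.01), filters, scalings, no trend, the block, left-out libraries (TM4 shNC replicates 1 and 2 together was added after seeing the data), 1 fit of all libraries, and the threshold of the study (adjusted p no higher than 0.001 with a log2 ratio of 1 or more either way).

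The 10 genes and all lists were chosen with earlier results of these data known. All 10 are named. Of the pathway lists, 15 fixed genes are named, and up to 5 per direction that passed, by fold change, with a mean of at least 1 RPKM, of which some are given here. Promoters and positions were read with Python 3.11.15, numpy 2.4.6 and pandas 2.3.3, and plots drawn with matplotlib 3.10.9.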

Additional observations from a re-analysis of the deposited data

How the results depend on the processing

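Of the 10 genes, 0 passed with shM5 in C18-4 cells under other pseudocounts, filters and scalings, without the trend and without any single library. With the replicate block 2 passed, as did 2 without replicate 3 of both groups. The count over all genes in that line was 68, and it was 4 with no filter on low values, 45 without the trend, 143 with all 12 libraries in 1 fit, 1386 with the replicate block, 3029 without replicate 3 of both groups and 0 at the threshold of the study. The study set that threshold for another test, DEGseq, and reported genes past it, so limma counts at it cannot be set against those of the study. Leaving out single libraries gave 0 to 237. The 0 came without shNC replicate 1 or 2 or shM5 replicate 1 or 2 (770 to 998 at an unadjusted p under 0.05), 31 without shM5 replicate 3 and 237 without shNC replicate 3. In TM4 cells the counts were 0 to 7433 over all genes and 0 to 8 among the 10, where every value above 0 came without shNC replicate 3, and 8016 and 9 without replicate 3 of both groups. TM4 libraries of the same number correlated by only 0.0729, 0.0489 and 0.127 and share only a number. With the replicate block 0 genes passed there (2568 at an unadjusted p under 0.05).

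For the difference between the lines in the shM5 effect the count over all genes was 12, and it was 27 with a pseudocount of 1, 21 with no filter, 23 after median centring, 57 after quantile normalisation, 22 without the trend, 2 with the replicate block and 7022 without replicate 3 of all groups, with 8 of the 10 genes then passing. Leaving out single libraries gave 0 to 4477 over all genes and 0 to 4 among the 10, the highest of both without TM4 shNC replicate 3. Between the lines 6 of the 10 and 7725 of all 11773 genes passed. Without single libraries 5 to 8 of the 10 and 6937 to 8672 of all genes did. At the threshold of the study 3 of the 10 and 3074 of all genes passed. The block changed no other call among the 10 genes.

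Leaving out TM4 shNC replicates 1 and 2 was chosen after seeing the data. For shM5 in TM4 cells the values that turned sign were then 0.0393 for Nfe2l2, -0.31 for Slc48a1, -0.51 for Nqo1, -0.25 for Gclm, -0.0180 for Gsr and -0.20 for Srxn1. For the difference in effect they were 0.0901 for Slc48a1, 0.88 for Nqo1, 0.21 for Gclm, 0.10 for Gsr and 0.0682 for Srxn1, and 0 genes passed (714 at an unadjusted p under 0.05). Between the lines Nqo1 was at -0.79, past the threshold, and Gclm at -0.39.

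Signs also turned under the other alternatives, in differences that had not passed. Between the lines Nqo1 was at -0.0035 after quantile normalisation, Gclm at -0.18 in the shM5 libraries, and Gsr at 0.44 and Srxn1 at 0.17 without replicate 3 of all groups. Without single libraries the ranges were -0.10 to 0.79 for Nqo1, -0.29 to 0.36 for Gsr and -0.43 to 0.0627 for Srxn1. For shM5 in C18-4 cells they were -0.11 to 0.19 for Gclc, -0.22 to 0.11 for Gclm, -0.0231 to 0.23 for Txnrd1, -0.24 to 0.00955 for Srxn1 and -0.16 to 0.23 for G6pdx, and for the difference in effect -0.70 to 0.19 for Nqo1 and -0.0692 to 0.32 for G6pdx. The cause was not tested. Read depth is unknown, so the counting error of low values such as those of Nqo1 could not be given.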

Other observations

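The list of phase II and other targets, which holds conjugating and reducing enzymes, had 14 of the 29 pathway genes that passed with shM5 in C18-4 cells with the replicate number as a block. These were 14 of 40 tested, against 11.9% of all genes. The values below are under that block, and with all C18-4 libraries and no block the genes named here did not pass. Gsta4, a glutathione S-transferase gene that handles lipid peroxidation products, was at 674, 626 and 463 RPKM with shNC and at 364, 347 and 262 RPKM with shM5 and fell by 0.85 on the log2 scale (SE 0.04, limma adjusted p = 0.000158). Ugt1a6a, a glucuronosyltransferase gene, had 2.04, 1.66 and 2.56 RPKM with shNC and 0.51, 0.70 and 0.80 RPKM with shM5 (-1.50, SE 0.19, adjusted p = 0.00353). Gsta3, of the same family as Gsta4, went the other way, at 0.77, 0.44 and 0.82 RPKM with shNC and 1.93, 1.74 and 1.38 RPKM with shM5 (1.23, SE 0.23, adjusted p = 0.0155). Akr1c13, an aldo-keto reductase gene, had 1.17, 0.60 and 1.76 RPKM and 3.01, 2.93 and 2.88 RPKM (1.36, SE 0.25, adjusted p = 0.0140). Members of these families are near copies of each other, and how the counting assigned their reads is not given in the sources used here.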
